A study of Mus musculus with 18 samples.

Results

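The genes of glycolysis, glucose uptake and lactate handling were followed in mouse bone marrow cells sorted as long-term haematopoietic stem cells, LT-HSC for short. The set holds 32 genes of the 44349 in the deposited table, found there by gene symbol. It is made of 2 glucose transporters, 3 hexokinases, 7 other genes of upper glycolysis, 3 regulators of phosphofructokinase, 8 genes of lower glycolysis, 2 lactate dehydrogenase subunits, 4 pyruvate dehydrogenase kinases, 2 monocarboxylate transporters and Hif1a. All 32 symbols were found in the table.

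The study sequenced RNA of cells sorted as CD34-, Flk2-, CD49b-low, c-Kit+, Sca-1+ and lineage-negative, from wild-type mice and from knockouts of DERARE, the distal element through which retinoic acid acts on the Hoxb genes. Its 18 libraries form 6 groups of 3. KO Reserve and WT Reserve are the knockout and wild-type libraries with the reserve label, KO Wnt5a is the knockout with Wnt5a and is described as a rescue, Wnt5a is the group with that label alone, KO Ctrl is the knockout control and WT is the wild type. Wnt5a is a secreted ligand of noncanonical Wnt signalling. The labels leave several points unsaid. They do not give the age, sex or strain of the mice, how or for how long Wnt5a was given, or how the sort of the reserve libraries differed from the others. The descriptions of KO Ctrl and KO Reserve also contain the words for wild type, so both were taken as knockout from their titles. Wnt5a was taken as wild type because its column header says so. The column headers of both reserve groups carry the allele tag derarefl, where the other headers carry derareko or derarewt, and no label explains the difference.

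Glycolysis breaks glucose down to pyruvate in the cytosol, with a first stage that spends ATP and a second stage that regains it. Cells that make lactate from pyruvate, through lactate dehydrogenase, keep the pathway running without oxygen, while pyruvate dehydrogenase sends pyruvate into mitochondria and is switched off by pyruvate dehydrogenase kinases. LT-HSC are known for a reliance on glycolysis and for high activity of the hypoxia-inducible factor HIF1, whose alpha subunit is encoded by Hif1a and which raises the transcription of many glycolytic genes.

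Values are FPKM, fragments per kilobase of transcript, scaled to the mapped total of the library, as deposited by the authors. Fold changes are on the log2(FPKM + 1) scale, which understates changes of low genes, and a gene is called when its Benjamini-Hochberg adjusted p from limma is below 0.05 over 14285 tested genes. Of the 32 genes 30 were tested. Eno2, the neuronal enolase, and Pdk4, a pyruvate dehydrogenase kinase of fasted muscle and heart, stayed below 1 FPKM in all 18 libraries and were not tested. The depth implied by the values was 21400000 to 40700000 fragments, at which 3 fragments give a 1 kb transcript 0.0736 to 0.14 FPKM. These limits include no error other than that of counting. Whether the 3 libraries of a group are separate animals is not in the labels, and the p-values then speak for the spread among libraries, which may be technical.

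The 6 reserve libraries stood apart from the other 12, on a first principal component with 53.28% of the variance, and they held transcripts of many other blood cells. Lists of cell type markers, chosen with earlier results of these data known, were summed in each library. The 15 granulocyte markers summed to 2520.4 to 3760 FPKM in KO Reserve, 4801 to 11057 in WT Reserve, 7.42 to 10.1 in KO Wnt5a, 74.0 to 102 in Wnt5a, 7.74 to 12.4 in KO Ctrl and 59.6 to 69.0 in WT. The 12 erythroid markers summed to 8868 to 10522 in KO Reserve and 5709 to 7663 in WT Reserve, against 629 to 714 in the other 12 libraries. The 8 B cell markers summed to 1554 to 1891 in KO Reserve and 2045 to 2388 in WT Reserve, against 28.3 to 71.8 elsewhere. The 14 LT-HSC markers were lowest in KO Reserve, at 82.7 to 87.4, followed by WT Reserve at 275 to 391, against 441 to 538 elsewhere. The other 12 libraries carried transcripts of megakaryocytes and platelets instead, and their 8 markers summed to 151 to 198 in KO Reserve and 355 to 382 in WT Reserve, but to 7653 to 10978 in KO Wnt5a, 12914 to 28918 in Wnt5a, 11799 to 20088 in KO Ctrl and 21287 to 31184 in WT. In both reserve groups 7 of the 8 averaged 1 FPKM or more and Gp6 was at 0. Of the granulocyte markers, 14 of 15 averaged 1 FPKM or more in KO Reserve and 15 in WT Reserve, against 2 in KO Wnt5a, 4 in Wnt5a, 4 in KO Ctrl and 3 in WT, and Retnlg was at 0 in KO Wnt5a, Wnt5a, KO Ctrl and WT. In such bulk libraries fewer cells of a type and less RNA per cell cannot be told apart.

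Across the 12 libraries without the reserve label the pathway was transcribed at high levels. Ldha, the muscle-type subunit of lactate dehydrogenase, had the highest level of the set, with a median of 2617 FPKM. Gapdh, the glyceraldehyde phosphate dehydrogenase (1308), Eno1, the ubiquitous enolase (1101), Aldoa, the main aldolase (1054), Tpi1, triose phosphate isomerase (713), and Pkm, the muscle-type pyruvate kinase (559), had the next highest medians. In the middle of the range stood Gpi1, glucose phosphate isomerase (368), Pgam1, phosphoglycerate mutase (289), Pdk3 (158), Pgk1, phosphoglycerate kinase (140), and Pfkp, the platelet-type phosphofructokinase (113). At the low end were the muscle enolase Eno3 (7.09), Pdk2 (5.51), the PFKFB genes (1.83 to 3.30) and hexokinase 3 (1.46). In the 6 reserve libraries Ldha and Gapdh also led, with medians of 1057 and 651, but Pkm stood at 45.2 there and the lactate exporter gene Slc16a3 at 0.384.

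**Figure D1:**
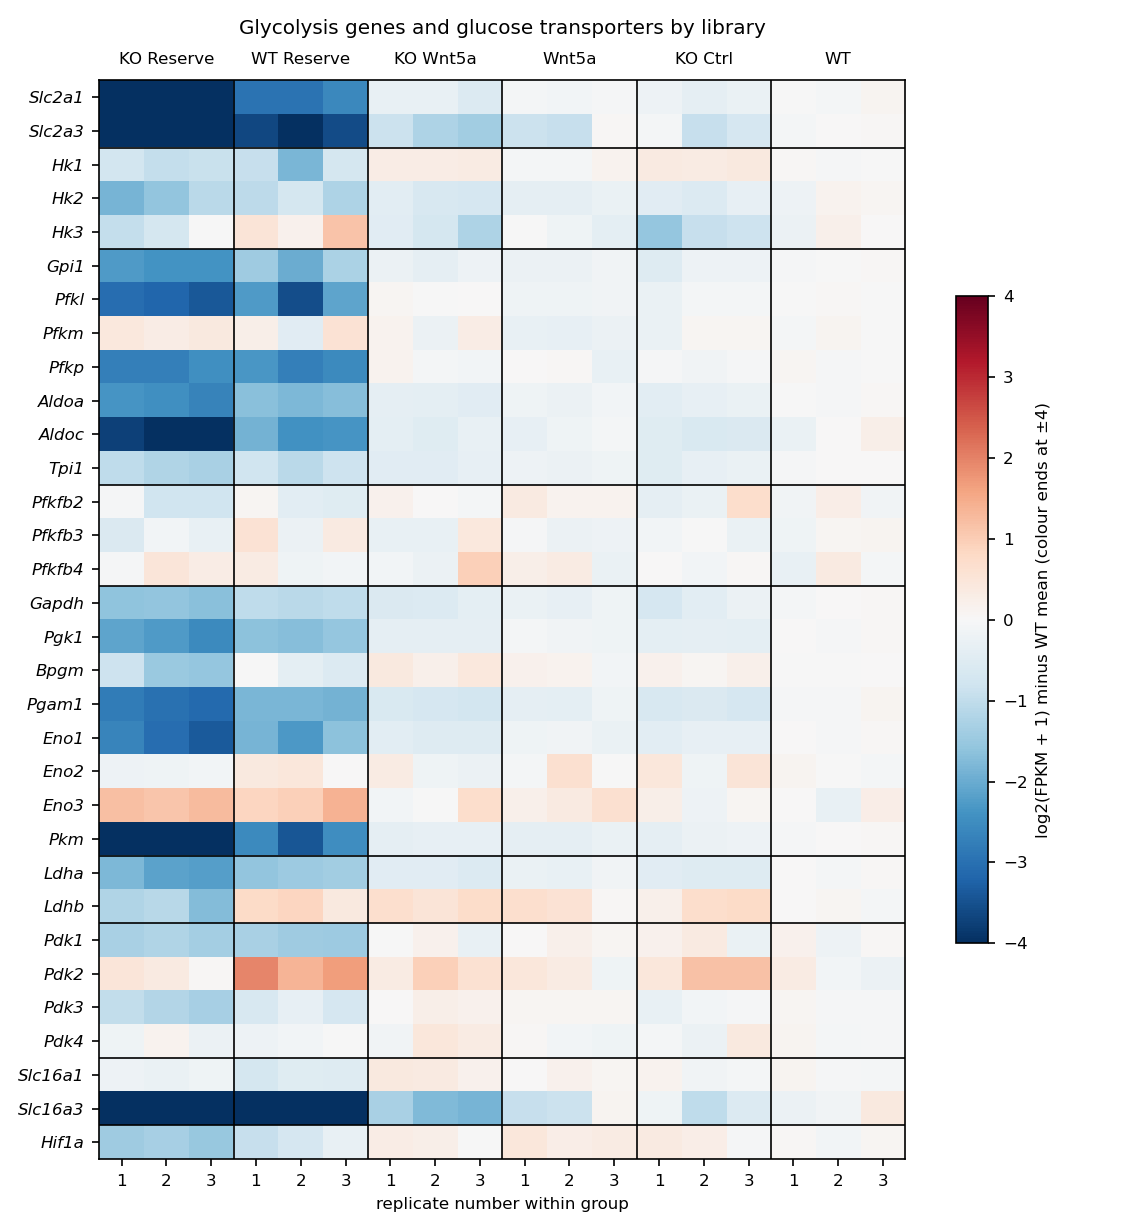
Level of the 32 genes in each of the 18 libraries, as log2(FPKM + 1) minus the mean of the WT group (blue lower, red higher, colours ending at ±4), with genes in rows by role and libraries in columns by group. Slc16a3, Slc2a3, Slc2a1 and Pkm are the darkest blue in the KO Reserve and WT Reserve columns, while Eno3 is red there and Pdk2 is reddest in WT Reserve.

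KO Ctrl against WT asks what loss of DERARE changed outside the reserve label. Enzymes of the central pathway were lower in the knockout, Pgam1 the most and Ldha, Gapdh, Pgk1, Tpi1 and Aldoa after it, with log2 fold changes between -0.64 and -0.34. Pdk2, one of the kinases that switch off pyruvate dehydrogenase, was higher. Of the 30 tested genes 6 fell and 1 rose, where 2.65% of all 14285 genes were called, 1.12% as lower and 1.53% as higher. The median log2 fold change was -0.21 over the 30 genes and 0.04 over all genes. The 3 KO Ctrl libraries lay below all 3 WT libraries for 16 of the 30 and above them for 4, while 11.4% of all genes lay below and 15.9% above.

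Pgam1 (ENSMUSG00000011752, chr19:41911923-41918660, plus strand in GRCm38) converts 3-phosphoglycerate to 2-phosphoglycerate. It had 256, 269 and 251 FPKM in KO Ctrl, against 388, 389 and 434 FPKM in WT (limma log2 fold change -0.64 with SE 0.09 and adjusted p = 0.000762). No library of one group came near the range of the other. Ldha (ENSMUSG00000063229, chr7:46841475-46855627, plus strand), which makes lactate from pyruvate, had 2466, 2348 and 2364 FPKM in KO Ctrl, against 3438, 3203 and 3514 FPKM in WT (limma log2 fold change -0.50 with SE 0.09 and adjusted p = 0.00598). Every KO Ctrl library again lay below every WT library, and the Ldha call ended with quantile normalization (-0.40). Pgk1 (ENSMUSG00000062070, chrX:106187100-106203699, plus strand), the first ATP-producing step, had 127, 131 and 128 FPKM in KO Ctrl, against 168, 162 and 172 FPKM in WT (limma log2 fold change -0.37 with SE 0.09 and adjusted p = 0.0395). Both groups were tight and well apart for Pgk1.

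The stretches of 250 bases before the RefSeq transcription starts of 5 called genes are shown here because these genes changed in the same libraries. The windows come from RefSeq on GRCm38.p6 and read 5′ to 3′ on the strand of the gene. Capitals mark ACGTG or GCGTG on either strand, the core of the hypoxia response element to which HIF1 binds. On the other strand these read as CACGT and CACGC, and CACGTG holds 2 overlapping matches. The windows are chr19:41911621-41911870 (plus strand) for Pgam1, chr7:46845554-46845803 (plus) for the upstream start of Ldha, chrX:106186850-106187099 (plus) for Pgk1, chr6:124814159-124814408 (minus) for Tpi1 and chr11:95041372-95041621 (minus) for the upstream start of Pdk2. Ldha and Pdk2 each have 2 such windows. Both windows of Ldha, the Pdk2 window not printed here and part of the Tpi1 window lie within the gene bounds of the annotation used for coordinates.
Pgam1: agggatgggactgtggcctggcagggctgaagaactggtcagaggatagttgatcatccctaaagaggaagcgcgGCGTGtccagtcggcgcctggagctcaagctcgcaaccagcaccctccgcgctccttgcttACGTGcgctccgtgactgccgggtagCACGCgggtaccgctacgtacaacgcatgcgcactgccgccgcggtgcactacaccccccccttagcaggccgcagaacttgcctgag
Ldha: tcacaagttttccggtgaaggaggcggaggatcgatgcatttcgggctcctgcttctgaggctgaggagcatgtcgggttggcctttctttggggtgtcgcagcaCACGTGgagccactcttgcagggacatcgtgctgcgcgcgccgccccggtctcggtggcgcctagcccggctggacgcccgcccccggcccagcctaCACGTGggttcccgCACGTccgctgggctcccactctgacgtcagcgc
Pgk1: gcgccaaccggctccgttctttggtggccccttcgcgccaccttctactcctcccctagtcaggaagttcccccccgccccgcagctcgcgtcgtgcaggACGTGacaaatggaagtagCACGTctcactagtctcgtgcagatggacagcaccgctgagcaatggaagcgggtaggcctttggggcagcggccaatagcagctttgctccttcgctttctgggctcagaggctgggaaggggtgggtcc
Tpi1: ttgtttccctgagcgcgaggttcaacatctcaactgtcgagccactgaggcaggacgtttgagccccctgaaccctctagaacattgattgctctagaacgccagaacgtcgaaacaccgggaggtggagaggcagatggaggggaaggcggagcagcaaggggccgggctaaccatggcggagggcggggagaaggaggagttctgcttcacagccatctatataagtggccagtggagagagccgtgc
Pdk2: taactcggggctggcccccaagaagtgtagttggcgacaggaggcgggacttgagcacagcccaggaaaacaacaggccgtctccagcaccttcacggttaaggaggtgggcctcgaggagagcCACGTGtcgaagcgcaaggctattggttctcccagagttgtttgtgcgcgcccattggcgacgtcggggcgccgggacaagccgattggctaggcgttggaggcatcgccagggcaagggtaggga
Ldha has 5 matches in this window, Pgam1 3, Pgk1 2, Pdk2 2 and Tpi1 0, while the other window of Ldha has 1 and that of Pdk2 has 0. Of the other called genes, whose windows are not printed, Gapdh has 2 matches in its window and Aldoa has 1, 1 and 0 in its 3 windows. A window was found for 31 of the 32 genes, and 27 of them (87.1%) hold at least 1 match in at least 1 window, where 60.9% of the 9666 tested genes with a window do and 41.5% of all 27025 genes. Bpgm, Eno2, Gpi1 and Tpi1 have none. Counted by window, 37 of the 47 windows of the set hold a match (78.7%), against 38.6% of 32851 windows of all genes. The count by window was not limited to tested genes. Some windows of the same gene overlap, as for Eno1 and Aldoa, so a match can count more than once. A match is a description of the letters and not a site of binding.

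Gapdh (ENSMUSG00000057666, chr6:125161715-125166467, minus strand) had 1016, 1209.7 and 1369.6 FPKM in KO Ctrl, against 1542, 1642 and 1673 FPKM in WT (limma log2 fold change -0.44 with SE 0.09 and adjusted p = 0.0129). The KO Ctrl libraries spread over a wider range than those of WT without reaching it. In the annotation 163 other genes, mostly pseudogenes, match Gapdh at 90% identity or more over at least 500 bases. Of these, 156 are in the table, where they made up 5.53% to 7.65% of the summed FPKM of Gapdh and those genes, so its value is uncertain where the authors' assignment could split reads. Aldoa (ENSMUSG00000030695, chr7:126795234-126800751, minus strand), which splits fructose bisphosphate into trioses, had 938, 1004 and 1035 FPKM in KO Ctrl, against 1249, 1213 and 1298 FPKM in WT (limma log2 fold change -0.34 with SE 0.08 and adjusted p = 0.0272). Tpi1 (ENSMUSG00000023456, chr6:124810586-124814296, minus strand), which interconverts those trioses, had 605, 675 and 705 FPKM in KO Ctrl, against 827, 854 and 868 FPKM in WT (limma log2 fold change -0.36 with SE 0.09 and adjusted p = 0.0344). For both Aldoa and Tpi1 the groups did not overlap.

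Pdk2 (ENSMUSG00000038967, chr11:95026258-95041354, minus strand) moved the other way, with 5.80, 10.2 and 9.98 FPKM in KO Ctrl, against 5.22, 3.54 and 3.23 FPKM in WT (limma log2 fold change 0.94 with SE 0.24 and adjusted p = 0.0482). The lowest KO Ctrl library was close to the highest WT library. The other kinases tested did not pass: Pdk1, a HIF1 target that restrains pyruvate oxidation, had a log2 fold change of 0.10 (adjusted p = 0.808), and Pdk3 stood at 139 ± 11.9 FPKM in KO Ctrl and 154 ± 8.61 in WT (SD, n = 3 each). Ldhb, the heart-type lactate dehydrogenase subunit, had 38.9, 55.6 and 57.6 FPKM in KO Ctrl, against 34.01, 35.3 and 31.7 FPKM in WT, without passing (log2 fold change 0.56, adjusted p = 0.139). All KO Ctrl libraries lay above all WT libraries for Ldhb, as for Pdk2, Hk1 and Bpgm, which encodes the bisphosphoglycerate mutase of red cells. Hk3, a hexokinase of myeloid cells, lay just outside the threshold, with 0.146, 0.770 and 0.869 FPKM in KO Ctrl, against 1.85, 2.80 and 2.38 FPKM in WT (limma log2 fold change -1.09 with SE 0.28 and adjusted p = 0.0511), and its groups did not overlap.

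Several calls of this comparison rest on small margins. Pgam1 and Ldha stayed called whichever single library was left out. Leaving out WT replicate 2 or WT replicate 3 left these 2 genes called, leaving out WT replicate 1 or KO Ctrl replicate 2 left 3, leaving out KO Ctrl replicate 1 left 4 and leaving out KO Ctrl replicate 3 left 5. The Pgk1 call ended without any one of the 6 libraries, those of Tpi1 and Aldoa without any of the 6 other than KO Ctrl replicate 3, that of Pdk2 without any other than KO Ctrl replicate 1, and that of Gapdh without WT replicate 2 or 3. Pdk2 was also not called with quantile normalization (0.79), without the filter, without trend and robust moderation, or with only these 6 libraries fitted. Without the 6 reserve libraries in the fit, 12 genes were called lower and 1 higher, which was not Pdk2, and 5.38% of all genes were then called. Median-ratio scaling changed the split over all genes, with 57.7% of called genes higher as deposited and 43.4% after it. It left 7 lower and 1 higher in the set.

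**Figure D2:**
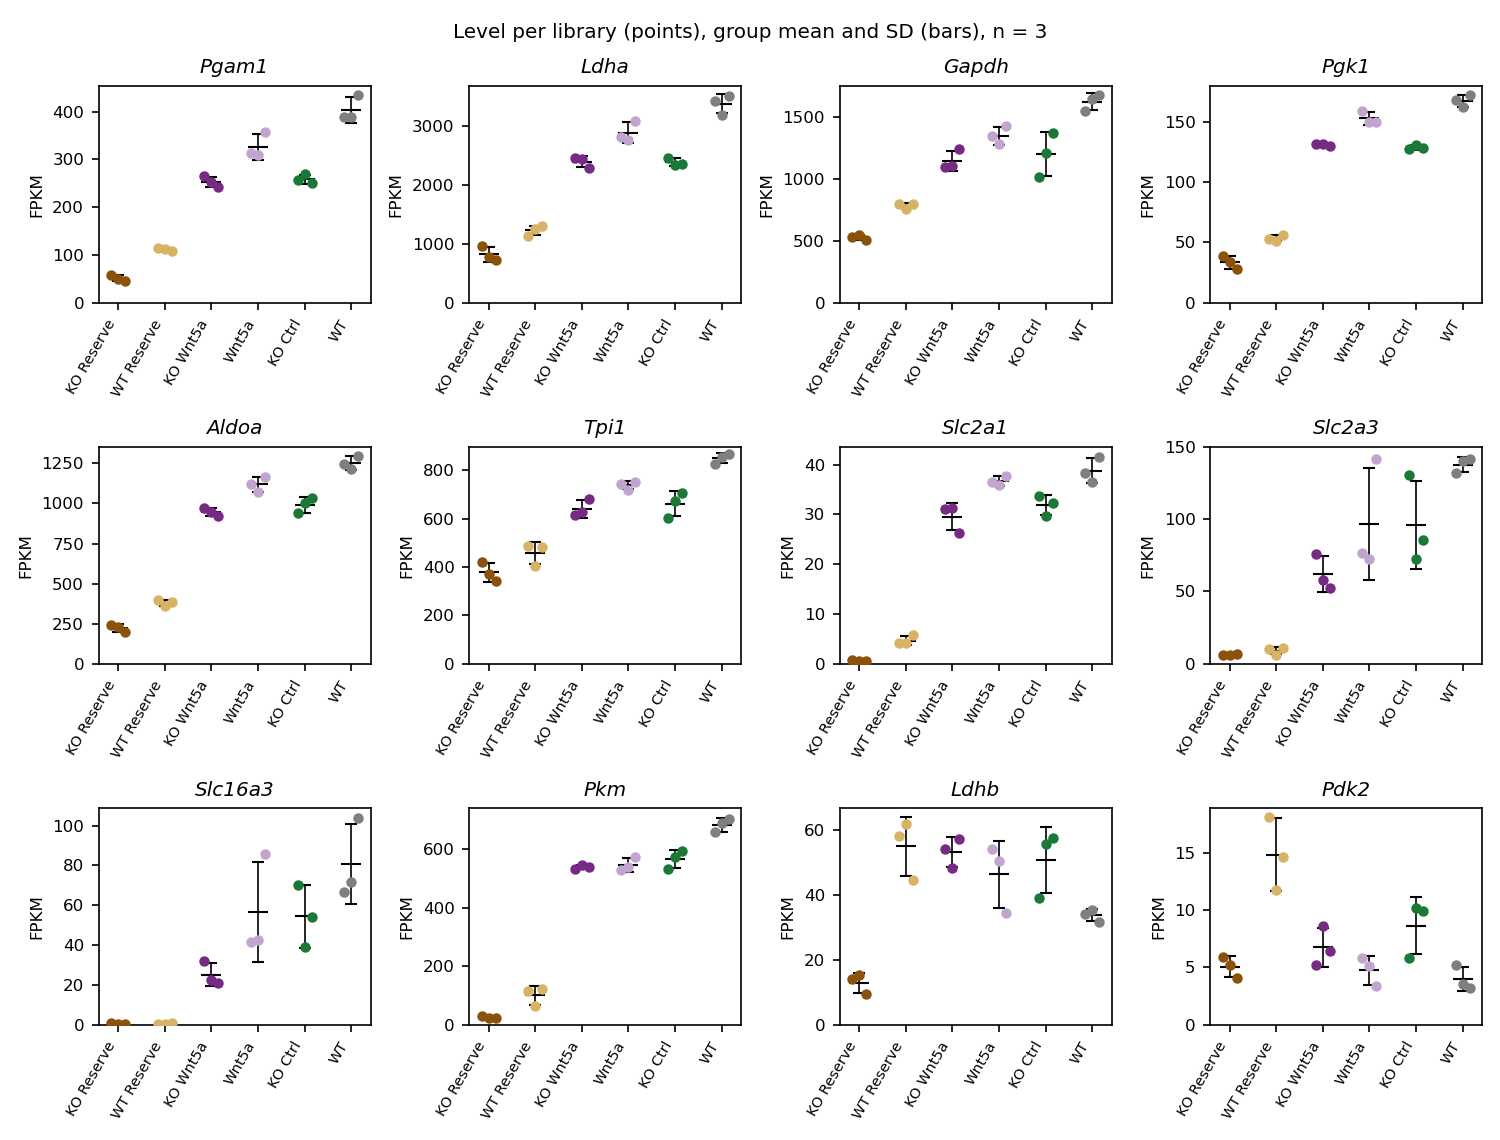
FPKM of 12 genes of the set in each library (points), with group mean and SD (bars, n = 3), groups ordered KO Reserve, WT Reserve, KO Wnt5a, Wnt5a, KO Ctrl and WT. Pgam1 and Ldha lie lower in KO Ctrl than in WT without overlap, and Pdk2 lies higher.

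Wnt5a against WT and KO Wnt5a against KO Ctrl ask what the Wnt5a label changed in each genotype. None of the 30 genes was called by limma in either comparison. In wild-type cells the same central enzymes had slightly lower values with the Wnt5a label, and in the knockout Slc16a3 had the largest difference. The WT libraries serve both the Wnt5a and the knockout comparison and the KO Ctrl libraries serve both knockout comparisons, so the values stand side by side and no overlap of calls is read from them.

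In Wnt5a against WT, 0 of 30 genes were called, with 0.049% of all genes called, 0.042% as higher and 0.007% as lower. At an unadjusted p below 0.05 limma gave 5 lower and 2 higher, beside 1126 of all 14285 genes. With library weights it called 10 lower and 2 higher, where 10.8% of all genes were then called. The median was -0.16 over the 30 genes and 0.02 over all. Pgam1 had 312, 308 and 358 FPKM in Wnt5a, against 388, 389 and 434 FPKM in WT (limma log2 fold change -0.31 with SE 0.09 and adjusted p = 0.426). Ldha had 2816, 2767 and 3098 FPKM in Wnt5a, against the WT values above (limma log2 fold change -0.23 with SE 0.09 and adjusted p = 0.546). In both genes all Wnt5a libraries lay below all WT libraries, as they did for 12 of 30 genes, where 9.71% of all genes did. Hif1a, the single gene of the set with all Wnt5a libraries above all WT libraries (11.7% of all genes), had 32.1, 27.95 and 28.9 FPKM in Wnt5a, against 23.9, 21.1 and 24.2 FPKM in WT, and was not called (limma log2 fold change 0.35 with SE 0.15 and adjusted p = 0.593).

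In KO Wnt5a against KO Ctrl, 0 of 30 genes were called, with 1.02% of all genes called (0.315% as higher and 0.707% as lower) and 2 higher and 2 lower at an unadjusted p below 0.05, beside 1525 of all genes. The median was 0.01 over the 30 genes and 0.04 over all. Slc16a3, which encodes the lactate exporter MCT4, had 31.9, 22.5 and 21.04 FPKM in KO Wnt5a, against 70.2, 38.8 and 54.00 FPKM in KO Ctrl (limma log2 fold change -1.07 with SE 0.30 and adjusted p = 0.136). The groups did not overlap. Slc16a1, which encodes the lactate and pyruvate transporter MCT1, had 58.9, 56.8 and 50.7 FPKM in KO Wnt5a, against 48.8, 40.1 and 42.3 FPKM in KO Ctrl, the other way round (limma log2 fold change 0.34 with SE 0.10 and adjusted p = 0.152). Pdk3 had 155, 181 and 172 FPKM in KO Wnt5a, against 125, 141 and 149 FPKM in KO Ctrl (limma log2 fold change 0.29 with SE 0.11 and adjusted p = 0.288). All KO Wnt5a libraries lay above all KO Ctrl libraries for 3 of 30 genes and below them for 2, against 10.1% and 6.76% of all genes. The genotype by Wnt5a interaction called 0 of 30 with limma, 1 at an unadjusted p below 0.05 and 0.07% of all genes called (0.021% as higher and 0.049% as lower), so that no difference between the genotypes in the response to the label was detected.

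KO Wnt5a against WT asks how far the knockout with Wnt5a lay from the wild type. The central enzymes that were lower in KO Ctrl were lower here too, and the glucose transporters Slc2a3 and Slc2a1, Slc16a3, Hk2 and Eno1 were called lower as well, while Ldhb rose. Of the 30 genes 11 fell and 1 rose, where 11.8% of all genes were called, 5.03% as lower and 6.8% as higher. The median was -0.17 over the 30 genes and 0.09 over all. All KO Wnt5a libraries lay below all WT libraries for 15 of 30 genes and above them for 4, against 13.9% and 25.1% of all genes.

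Slc2a3 (ENSMUSG00000003153, chr6:122727809-122801640, minus strand) encodes GLUT3, the high-affinity glucose transporter known from neurons and platelets. It had 76.3, 58.05 and 52.6 FPKM in KO Wnt5a, against 132, 140.3 and 142 FPKM in WT (limma log2 fold change -1.15 with SE 0.25 and adjusted p = 0.00844). Slc16a3 (ENSMUSG00000025161, chr11:120948480-120960868, plus strand) had 31.9, 22.5 and 21.04 FPKM in KO Wnt5a, against 66.9, 71.5 and 104 FPKM in WT (limma log2 fold change -1.64 with SE 0.30 and adjusted p = 0.00281), but with a pseudocount of 0.1 it was not called (-1.67). In both genes the highest KO Wnt5a library was far below the lowest WT library. Slc2a1, which encodes the widely expressed transporter GLUT1, had 31.03, 31.4 and 26.4 FPKM in KO Wnt5a, against 38.4, 36.5 and 41.5 FPKM in WT (limma log2 fold change -0.38 with SE 0.12 and adjusted p = 0.0497). Hk2, the mitochondria-bound hexokinase of growing cells, had 21.2, 18.3 and 17.6 FPKM in KO Wnt5a, against 24.8, 31.9 and 30.5 FPKM in WT (limma log2 fold change -0.58 with SE 0.17 and adjusted p = 0.0382). Both differences were smaller than those of Slc2a3 and Slc16a3, although the groups did not overlap.

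Among the enzymes, Pgam1 had 264, 252 and 243 FPKM in KO Wnt5a (limma log2 fold change -0.67 with SE 0.09 and adjusted p = 0.000184), Ldha 2454, 2449 and 2299 FPKM (log2 fold change -0.50, SE 0.09) and Gapdh 1093, 1103 and 1238 FPKM (log2 fold change -0.50, SE 0.09), all below the 3 WT values given above. The log2 value fell by 0.40 for Aldoa (SE 0.08), Tpi1 by 0.41 (SE 0.09), Pgk1 by 0.35 (SE 0.09) and Eno1 by 0.48 (SE 0.15). Ldhb had 54.2, 48.1 and 57.1 FPKM in KO Wnt5a, against 34.01, 35.3 and 31.7 FPKM in WT (limma log2 fold change 0.64 with SE 0.20 and adjusted p = 0.0431), and all KO Wnt5a libraries were above all WT libraries. Ldha was not called with quantile normalization (-0.26). Ldhb was no longer called under either scaling (0.58 with quantile normalization and 0.53 with median-ratio scaling). The calls of Slc2a1, Eno1 and Ldhb ended without any one of the 6 libraries, that of Hk2 without any other than WT replicate 1 and that of Pgk1 without any other than WT replicate 2. In all, 7 genes were called without KO Wnt5a replicate 1, 2 or 3 or without WT replicate 3, and 15 were called lower and 4 higher without the 6 reserve libraries in the fit, where 17.6% of all genes were then called. Over all genes, 57.5% of called genes were higher as deposited, 40.2% with quantile normalization and 32.8% with median-ratio scaling.

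**Figure D3:**
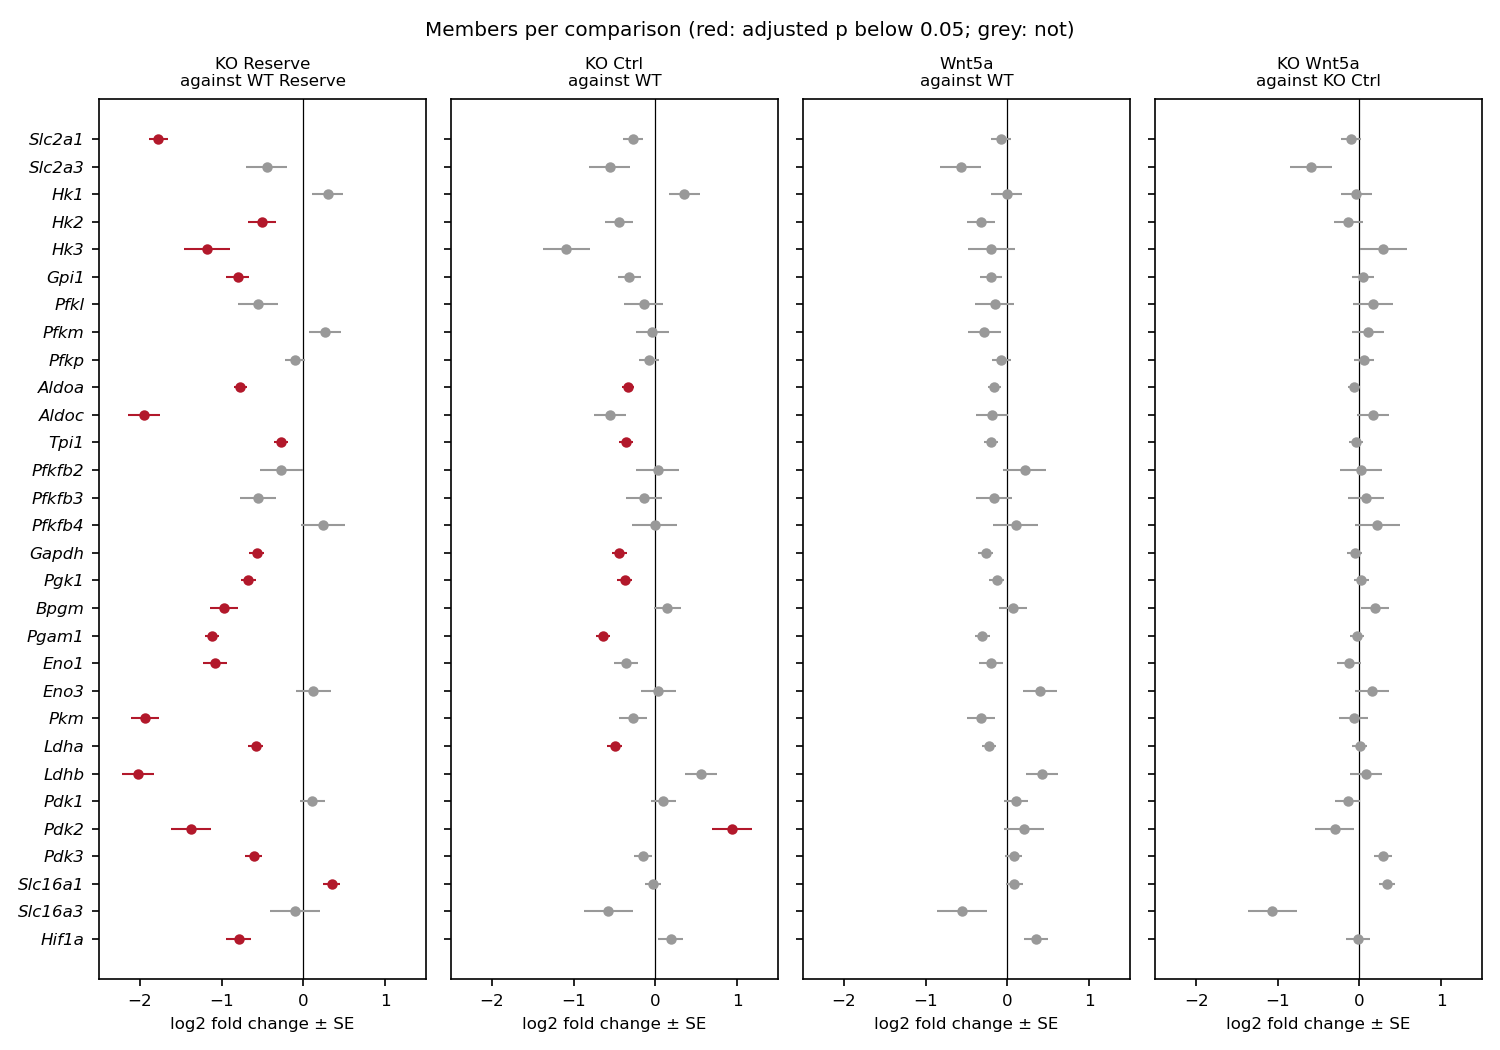
Log2 fold change on the log2(FPKM + 1) scale (points) with SE (bars) of the 30 tested genes, ordered by role, in 4 comparisons, with called genes in red and the others in grey. KO Reserve against WT Reserve has 18 red points left of 0 and 1 right of it, KO Ctrl against WT has 6 and 1, and both Wnt5a panels have 0.

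The summed markers of megakaryocytes and platelets differed between these 12 libraries. The 5 libraries with the largest summed marker level were WT replicates 1 to 3, Wnt5a replicate 3 and KO Ctrl replicate 1, at 20088 FPKM or more, against 17174 or less in the other 7. The same 5 libraries had the highest Slc2a3, at 130.6 or more against 85.5 or less, and the highest Slc16a3, at 66.9 or more against 54.0 or less. For Slc2a1, Pgam1 and Ldha, 4 of these 5 libraries were among the 5 highest. WT replicates 1 to 3 are among the 5 for each of these genes, so the match in part repeats the differences from WT given above. The number 5 was chosen after the values were seen. Of the 8 platelet markers, 1 was called lower in KO Ctrl against WT (median -0.70), 0 in Wnt5a against WT (-0.51), 1 in KO Wnt5a against KO Ctrl (-0.64) and 7 in KO Wnt5a against WT (-1.35). Markers of other cells differed as well. In KO Ctrl against WT, 3 of 6 mast cell and basophil markers (median -0.80), 1 of 7 monocyte and macrophage and 1 of 4 T and NK cell markers were called lower, 3 of 7 B cell (0.93) and 3 of 13 LT-HSC markers (0.25) higher, and 1 granulocyte marker each way. In KO Wnt5a against WT, 5 of 13 LT-HSC markers were called higher and 2 lower (0.62), and 2 of 7 B cell, 1 of 4 T and NK cell and 1 of 6 mast cell and basophil markers higher. There 1 monocyte and macrophage marker was called each way, 1 of 11 erythroid markers higher and 2 lower, and 1 granulocyte and 1 stromal and endothelial marker lower. In Wnt5a against WT 2 of 6 mast cell and basophil markers were called higher. In KO Wnt5a against KO Ctrl 3 of those 6 and 2 of 4 T and NK cell markers were called higher, and 1 erythroid and 1 monocyte and macrophage marker lower. The part of any of these markers in the differences of Slc2a3, Slc16a3 and the enzymes was not tested. KO Ctrl replicate 1 had the highest marker sum of the 6 knockout libraries. It also had the highest Slc2a3, Slc16a3, Slc2a1 (33.8 FPKM) and Ldha (2466 FPKM) of those 6. Its Pgam1, at 256 FPKM, lay between the 251 and 269 FPKM of the other KO Ctrl libraries. Its Pdk2 and Ldhb levels, given above, were the lowest of KO Ctrl and the nearest to WT. These values come from a single library, and a link to the marker sum was not tested.

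**Figure D4:**
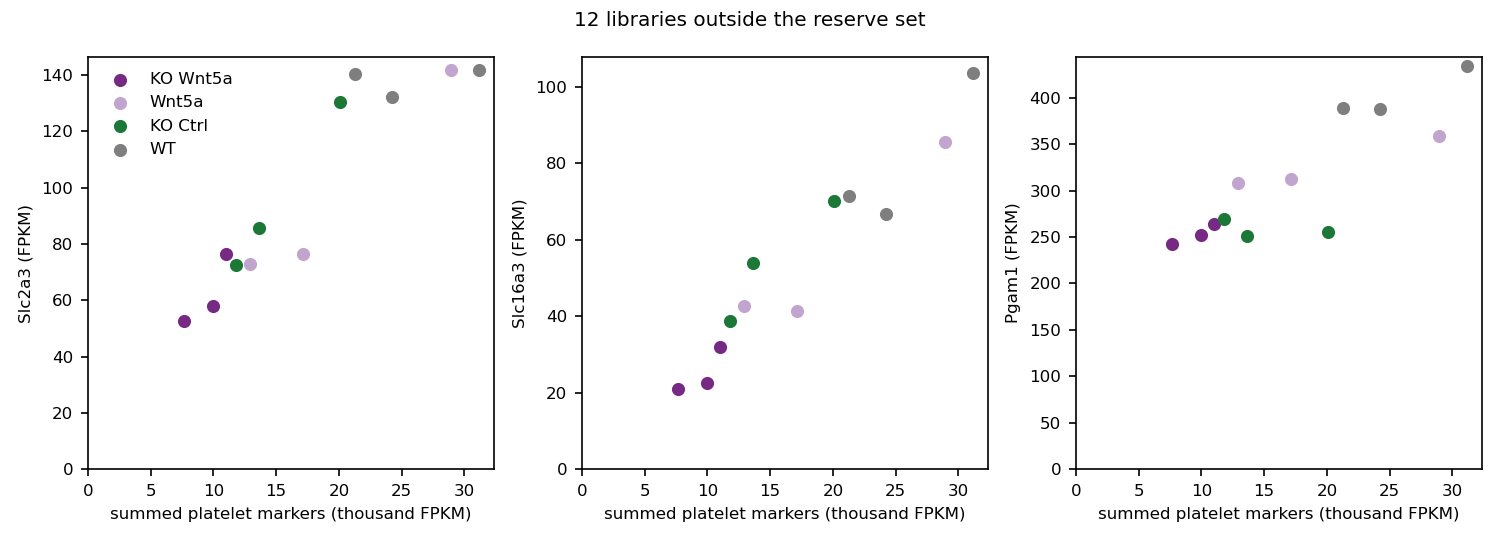
FPKM of Slc2a3, Slc16a3 and Pgam1 (vertical axes) against the summed FPKM of 8 megakaryocyte and platelet markers (horizontal axes) in the 12 libraries without the reserve label, coloured by group. For Slc2a3 and Slc16a3 the 5 libraries with the largest marker sum stand above the other 7, and for Pgam1 the KO Ctrl library among those 5 lies with the other knockout libraries.

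KO Reserve against WT Reserve asks what loss of DERARE changed among the libraries with the reserve label. Slc2a1, enzymes of both stages of glycolysis and both lactate dehydrogenase subunits were lower in the knockout. The largest differences were in Ldhb, Aldoc, Pkm and Slc2a1, with log2 fold changes between -2.02 and -1.77. Slc16a1 was the single gene of the set that rose. Of the 30 genes 18 fell and 1 rose, where 41.3% of all genes were called, 29.3% as lower and 12% as higher. The median log2 fold change was -0.58 over the 30 genes and -0.17 over all genes, which sets the level against which the members are read. The KO Reserve libraries lay below all WT Reserve libraries for 16 of 30 genes and above them for 1, against 30.7% and 14% of all genes. Quantile normalization, after which the median of all genes was 0.03, gave 17 lower and 3 higher in the set, and median-ratio scaling gave 16 and 2, while the share of called genes that were higher, over all genes, was 29% as deposited, 53.3% with quantile normalization and 49.2% with median-ratio scaling.

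Slc2a1 (ENSMUSG00000028645, chr4:119108711-119137983, plus strand) had 0.788, 0.605 and 0.519 FPKM in KO Reserve, against 4.14, 4.10 and 5.65 FPKM in WT Reserve (limma log2 fold change -1.77 with SE 0.12 and adjusted p = 3.36e-08, and -1.61 relative to the median of all genes). Every KO Reserve library was below 1 FPKM. Slc2a3 had 5.82, 5.98 and 6.50 FPKM in KO Reserve, against 10.05, 6.10 and 10.6 FPKM in WT Reserve, where WT Reserve replicate 2 fell within the KO Reserve range (limma log2 fold change -0.45 with SE 0.25 and adjusted p = 0.173). Slc2a1 thus made up 9.50% ± 2.28 of the summed FPKM of both transporters in KO Reserve and 34.7% ± 5.51 in WT Reserve (SD, n = 3 each), with no overlap between the groups.

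Among hexokinases, which trap glucose as glucose 6-phosphate, Hk3 had 0.725, 1.03 and 2.26 FPKM in KO Reserve, against 3.75, 2.77 and 6.34 FPKM in WT Reserve (limma log2 fold change -1.18 with SE 0.28 and adjusted p = 0.00334). These low values did not overlap, and the summed granulocyte markers were also lower in KO Reserve, as given above. Their part in the Hk3 result was not tested. The log2 value of Hk2 fell by 0.51 (limma SE 0.17 and adjusted p = 0.0262), but its call was lost in 7 of 14 alternatives. These were quantile normalization (-0.23), median-ratio scaling (-0.31), testing without the filter and fitting only these 6 libraries. The rest left out KO Reserve replicate 1 or 2 or WT Reserve replicate 2. Hk1, the constitutive hexokinase, stood at 19.6 ± 1.48 FPKM in KO Reserve and 16.6 ± 6.39 in WT Reserve and was not called (adjusted p = 0.228).

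In upper glycolysis, Aldoc, the brain-type aldolase, had 3.97, 2.80 and 1.57 FPKM in KO Reserve, against 16.97, 11.3 and 11.8 FPKM in WT Reserve (limma log2 fold change -1.95 with SE 0.20 and adjusted p = 1.54e-06). The highest KO Reserve library was well below the lowest WT Reserve library. Aldoa, the aldolase with the far higher level, had 244, 229.6 and 195 FPKM in KO Reserve, against 396, 359 and 384 FPKM in WT Reserve (limma log2 fold change -0.77 with SE 0.08 and adjusted p = 1.42e-06). Gpi1, which turns glucose 6-phosphate into fructose 6-phosphate, had 87.1, 80.6 and 80.2 FPKM in KO Reserve, against 159, 108 and 178 FPKM in WT Reserve (limma log2 fold change -0.81 with SE 0.14 and adjusted p = 0.000188). Neither gene overlapped between groups. The 3 phosphofructokinases, which commit sugar to glycolysis, were not called: Pfkl, the liver type, had a log2 fold change of -0.55 (adjusted p = 0.0825), Pfkp -0.10 (0.525) and Pfkm, the muscle type, 0.26 (0.31).

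In lower glycolysis, Pkm (ENSMUSG00000032294, chr9:59656368-59679375, plus strand), which makes pyruvate and ATP, had 28.3, 22.6 and 22.3 FPKM in KO Reserve, against 115, 62.2 and 121 FPKM in WT Reserve (limma log2 fold change -1.93 with SE 0.17 and adjusted p = 4.69e-07). WT Reserve replicate 2 was the lowest of its group and still above every KO Reserve library. Pgam1 had 57.7, 49.8 and 45.4 FPKM in KO Reserve, against 114, 113 and 107 FPKM in WT Reserve (limma log2 fold change -1.12 with SE 0.09 and adjusted p = 1.44e-07). Eno1, which makes phosphoenolpyruvate, had 214, 164 and 132 FPKM in KO Reserve, against 372, 277 and 432 FPKM in WT Reserve (limma log2 fold change -1.09 with SE 0.15 and adjusted p = 2.8e-05). Both groups were again apart. Bpgm had 15.7, 9.51 and 9.07 FPKM in KO Reserve, against 28.3, 21.5 and 19.1 FPKM in WT Reserve (limma log2 fold change -0.97 with SE 0.17 and adjusted p = 0.000241). The erythroid markers, listed above, summed higher in KO Reserve. Eno3 was not called (15.8 ± 0.779 FPKM in KO Reserve and 14.6 ± 3.26 in WT Reserve), and Eno2 stayed below the filter.

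At the fate of pyruvate, Ldhb (ENSMUSG00000030246, chr6:142490249-142507957, minus strand) had 14.2, 15.2 and 9.35 FPKM in KO Reserve, against 58.1, 61.95 and 44.6 FPKM in WT Reserve (limma log2 fold change -2.02 with SE 0.20 and adjusted p = 1.01e-06, and -1.85 relative to the median of all genes). This was the largest change of the set in this comparison on the log2(FPKM + 1) scale, and the groups were far apart. As a ratio of mean FPKM, KO Reserve over WT Reserve, Slc2a1 (0.138) and Aldoc (0.208) were further from 1 than Ldhb (0.235). Ldha had 971, 774 and 728 FPKM in KO Reserve, against 1142, 1246 and 1302 FPKM in WT Reserve (log2 fold change -0.59, SE 0.09). Pdk2 had 5.91, 5.26 and 4.07 FPKM in KO Reserve, against 18.2, 11.8 and 14.7 FPKM in WT Reserve (limma log2 fold change -1.38 with SE 0.24 and adjusted p = 0.000258). All KO Reserve libraries were below all WT Reserve libraries for these 3 genes. Slc16a1 had 38.1, 36.8 and 39.8 FPKM in KO Reserve, against 27.1, 31.7 and 31.02 FPKM in WT Reserve (limma log2 fold change 0.35 with SE 0.10 and adjusted p = 0.0109), but was not called without WT Reserve replicate 1 (0.28) or with only these 6 libraries fitted. Hif1a had 7.92, 8.58 and 7.42 FPKM in KO Reserve, against 11.7, 14.2 and 18.4 FPKM in WT Reserve (limma log2 fold change -0.79 with SE 0.15 and adjusted p = 0.000486), with no overlap.

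The other called genes were Pgk1 (log2 fold change -0.68, SE 0.09), Pdk3 (log2 fold change -0.61, SE 0.11), Gapdh (log2 fold change -0.57, SE 0.09) and Tpi1 (log2 fold change -0.27, SE 0.09), all lower on the log2 scale in KO Reserve. Relative to the median of all genes Tpi1 differed by -0.11, and its call ended with median-ratio scaling (-0.06), with only these 6 libraries fitted, without KO Reserve replicate 2 or 3 and without WT Reserve replicate 1 or 3. The reserve libraries also differed in the markers of other cells: between KO Reserve and WT Reserve 11 of 14 tested granulocyte markers, 6 of 7 monocyte and macrophage markers, 12 of 13 LT-HSC markers and 3 of 8 platelet markers were called lower, while 6 of 11 erythroid markers were called higher and 1 lower. Of the remaining lists, 2 of 7 B cell, 3 of 4 T and NK cell, 2 of 6 mast cell and basophil and 1 of 2 stromal and endothelial markers were called lower. Monocyte and macrophage markers summed to 117 to 162 FPKM in KO Reserve and 646 to 871 in WT Reserve, T and NK cell markers to 123 to 147 in KO Reserve and 263 to 338 in WT Reserve, mast cell and basophil markers to 38.7 to 56.7 in KO Reserve and 153 to 182 in WT Reserve, and stromal and endothelial markers to 5.68 to 6.62 in KO Reserve and 11.6 to 16.8 in WT Reserve. Their part in the differences of the glycolysis genes was not tested.

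WT Reserve against WT asks how the reserve libraries differed from the others within the wild type. Glucose transporters, Slc16a3, Pkm and the phosphofructokinases Pfkl and Pfkp were lower with the reserve label, while Pdk2, Eno3 and Ldhb were higher. Of the 30 genes 21 fell and 3 rose, where 58.7% of all genes were called, 27.9% as lower and 30.8% as higher. The median was -1.10 over the 30 genes and 0.06 over all. WT Reserve lay below WT in all libraries for 22 of 30 genes and above it for 3, against 30.4% and 33.6% of all genes. The label is confounded with large amounts of other cells' transcripts, of granulocytes, erythroid cells and B cells in WT Reserve and of platelets in WT. The effect of the label and of those cells cannot be told apart.

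Slc16a3 had 0.424, 0.0530 and 0.969 FPKM in WT Reserve, against 66.9, 71.5 and 104 FPKM in WT (limma log2 fold change -5.80 with SE 0.30 and adjusted p = 1.78e-10). Slc2a3 had 10.05, 6.10 and 10.6 FPKM in WT Reserve, against 132, 140.3 and 142 FPKM in WT (limma log2 fold change -3.84 with SE 0.25 and adjusted p = 2.74e-09), and Slc2a1 had a log2 fold change of -2.83 (SE 0.12). The gap between groups was wide for each of the 3 transporters, and the platelet marker sum was also lower, at 355 to 382 FPKM in WT Reserve against 21287 to 31184 in WT. Its part was not tested. The log2 value fell by 2.83 for Pkm (SE 0.17), Pfkl by 2.64 (SE 0.24), Pfkp by 2.53 (SE 0.12), Aldoc by 2.22 (SE 0.20), Eno1 by 1.93 (SE 0.15), Pgam1 by 1.85 (SE 0.09), Aldoa by 1.72 (SE 0.08) and Pgk1 by 1.63 (SE 0.09). Pdk2 had 18.2, 11.8 and 14.7 FPKM in WT Reserve, against 5.22, 3.54 and 3.23 FPKM in WT (limma log2 fold change 1.67 with SE 0.24 and adjusted p = 1.6e-05). All 3 WT Reserve libraries lay above all 3 WT libraries. Eno3 had 12.4, 13.1 and 18.4 FPKM in WT Reserve, against 6.49, 4.99 and 7.82 FPKM in WT (limma log2 fold change 1.07 with SE 0.21 and adjusted p = 0.000347). Ldhb had 58.1, 61.95 and 44.6 FPKM in WT Reserve, against the WT values given above (limma log2 fold change 0.68 with SE 0.20 and adjusted p = 0.00698). The other 10 called genes fell by 0.55 (Pdk3) to 1.55 (Gpi1). Pfkm was not called (log2 fold change 0.11, adjusted p = 0.654), nor were Hk3, Bpgm and the 3 PFKFB genes.

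KO Reserve against KO Ctrl makes the same comparison in the knockout. Here 23 of the 30 genes fell and Eno3 rose, where 65.3% of all genes were called, 40.4% as lower and 24.8% as higher. The median was -1.49 over the 30 genes and -0.19 over all. KO Reserve lay below KO Ctrl in all libraries for 23 of 30 genes and above it for 2, against 41% and 25.9% of all genes. Slc2a1 had 0.788, 0.605 and 0.519 FPKM in KO Reserve, against 33.8, 29.7 and 32.2 FPKM in KO Ctrl (limma log2 fold change -4.33 with SE 0.12 and adjusted p = 2.69e-14). Pkm had 28.3, 22.6 and 22.3 FPKM in KO Reserve, against 533, 574 and 595 FPKM in KO Ctrl (limma log2 fold change -4.49 with SE 0.17 and adjusted p = 1.2e-12). In both genes every KO Reserve library was far below every KO Ctrl library. Slc16a3 fell by 5.33 (SE 0.30), Slc2a3 by 3.73 (SE 0.25), Aldoc by 3.62 (SE 0.20), Pfkl by 3.05 (SE 0.24), Eno1 by 2.66 (SE 0.15), Pfkp by 2.56 (SE 0.12), Pgam1 by 2.33 (SE 0.09), Aldoa by 2.15 (SE 0.08), Gpi1 by 2.04 (SE 0.14) and Pgk1 by 1.93 (SE 0.09). The other 11 genes that fell did so by 0.64 (Pdk2) to 1.90 (Ldhb), and the Pdk2 call ended after quantile normalization (-0.30) or median-ratio scaling (-0.39), and without KO Reserve replicate 3 or KO Ctrl replicate 2 or 3. Eno3 had 15.8, 15.01 and 16.6 FPKM in KO Reserve, against 7.58, 5.42 and 6.72 FPKM in KO Ctrl (limma log2 fold change 1.16 with SE 0.21 and adjusted p = 0.000133). Platelet markers again differed with the label, at 151 to 198 FPKM in KO Reserve against 11799 to 20088 in KO Ctrl, and their part was not tested.

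The genotype by reserve interaction asks whether the genotype difference was the same with and without the reserve label. It called 11 of the 30 genes, all lower, where 30.9% of all genes were called, 22.9% as lower and 8.03% as higher, around a median of -0.30 in the set and -0.22 over all genes. Ldhb and Pdk2 gave the largest values. Both were lower in KO Reserve than in WT Reserve, and had all KO Ctrl libraries above all WT libraries. The interaction was -2.58 for Ldhb (SE 0.28, adjusted p = 8.07e-06) and -2.31 for Pdk2 (SE 0.34, adjusted p = 0.000118). Quantile normalization gave 10 lower and 1 higher, and median-ratio scaling 7 lower and 2 higher, where 28.9% and 29.3% of all genes were called.

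Isozyme shares, the share of one gene in the summed FPKM of its enzyme family, describe which form of an enzyme dominated. Shares were not tested. Pfkm, the muscle phosphofructokinase, made up 38.98% ± 0.900 of the 3 phosphofructokinases in KO Reserve and 29.7% ± 3.26 in WT Reserve, against 5.22% to 6.29% in the means of the other 4 groups (SD, n = 3). Its own level, 18.2, 16.7 and 17.6 FPKM in KO Reserve and 15.6, 9.34 and 20.3 FPKM in WT Reserve, against 10.8, 14.04 and 14.1 FPKM in KO Ctrl and 12.6, 14.2 and 13.02 FPKM in WT, was not called in any comparison between groups, while Pfkl and Pfkp fell around it. Eno3 made up 8.81% ± 2.18 of the enolases in KO Reserve and 3.94% ± 0.660 in WT Reserve, against 0.621% ± 0.119 in KO Ctrl and 0.471% ± 0.0863 in WT. Slc16a3 made up 0.904% ± 0.664 of both monocarboxylate transporters in KO Reserve, 1.58% ± 1.43 in WT Reserve, 30.9% ± 3.66 in KO Wnt5a, 52.9% ± 10.4 in Wnt5a, 54.8% ± 5.03 in KO Ctrl and 63.8% ± 6.56 in WT. The means were highest in WT, and those of Wnt5a and KO Ctrl did not differ beyond their spread, nor did those of KO Reserve and WT Reserve.

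Hk1 made up 68.8%, 69.1% and 67.2% of the hexokinases in KO Ctrl, against 58.6%, 50.4% and 51.9% in WT. The groups did not overlap, with Hk1 at 46.3, 45.2 and 47.9 FPKM in KO Ctrl and 37.7, 35.2 and 35.5 FPKM in WT and not called (limma log2 fold change 0.35 with SE 0.19 and adjusted p = 0.359). In KO Wnt5a and Wnt5a the Hk1 share was 69.4% ± 2.72 and 59.1% ± 1.497. Ldhb made up 1.54% ± 0.339 of lactate dehydrogenase in KO Reserve, 4.30% ± 0.854 in WT Reserve, 2.17% ± 0.248 in KO Wnt5a, 1.59% ± 0.426 in Wnt5a, 2.08% ± 0.458 in KO Ctrl and 0.987% ± 0.0981 in WT. Ldha dominated in every library. Pdk2 made up 5.71% ± 0.475 of the kinases in KO Reserve and 11.3% ± 2.93 in WT Reserve, and 4.55% ± 1.06 in KO Ctrl against 2.02% ± 0.400 in WT.

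**Figure D5:**
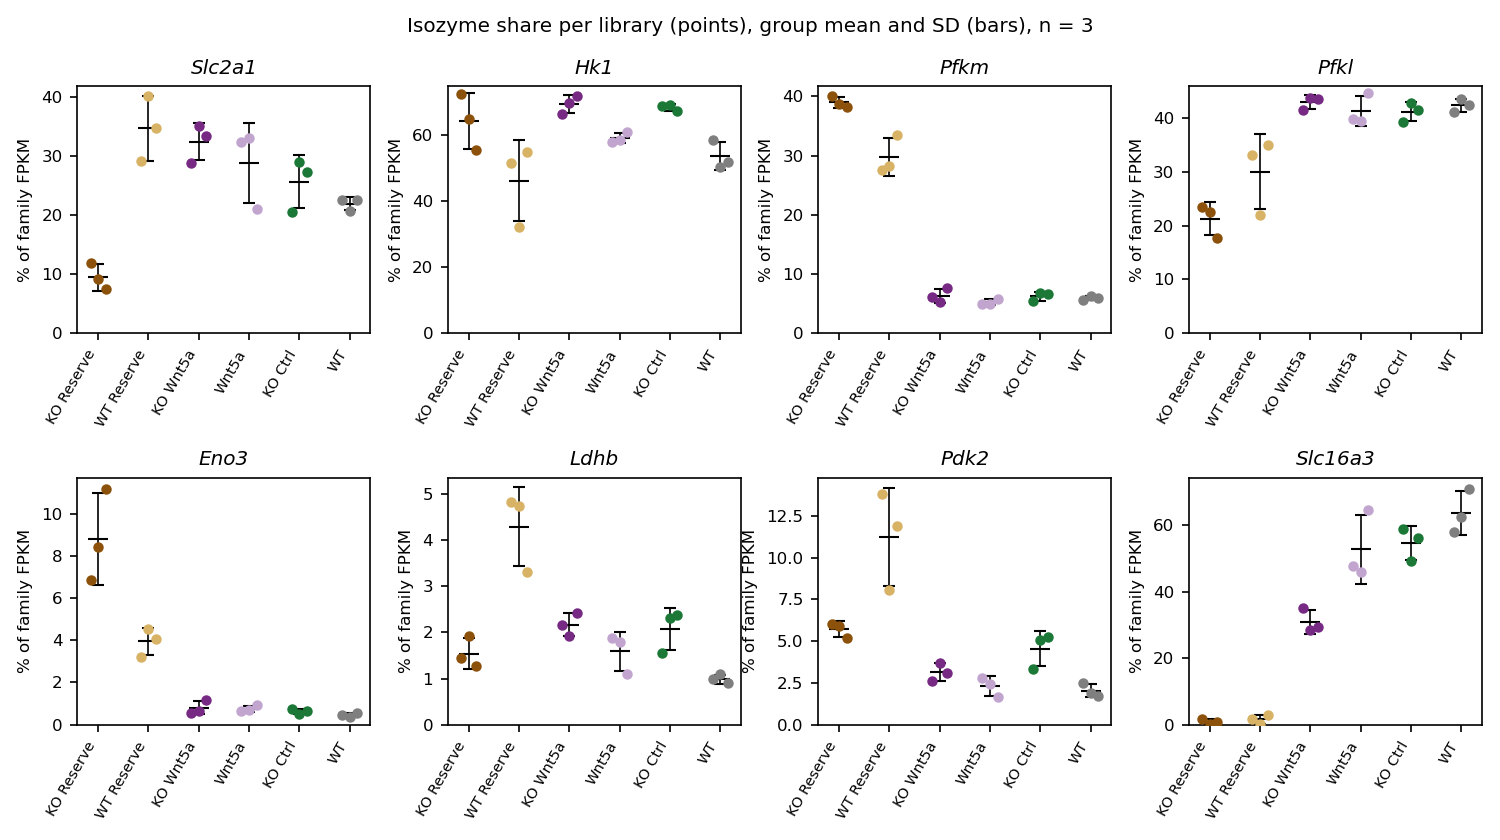
Share of 8 genes in the summed FPKM of their enzyme family (percent), in each library (points) with group mean and SD (bars, n = 3), groups ordered KO Reserve, WT Reserve, KO Wnt5a, Wnt5a, KO Ctrl and WT. Pfkm and Eno3 have their highest shares in both reserve groups, and Slc16a3 its lowest.

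The genes that turn phosphofructokinase on and off had low levels in all 18 libraries. Pfkfb2, Pfkfb3 and Pfkfb4 make and break fructose 2,6-bisphosphate, the allosteric activator of phosphofructokinase, and none was called in any comparison. Pfkfb2 lay between 1.34 and 5.65 FPKM over the 18 libraries, Pfkfb3 between 1.495 and 4.59 and Pfkfb4 between 1.35 and 4.60. The nearest to the threshold was Pfkfb3 in KO Reserve, with 1.495, 2.45 and 2.05 FPKM against 4.59, 2.17 and 3.75 FPKM in WT Reserve (limma log2 fold change -0.56 with SE 0.22 and adjusted p = 0.0509). Pdk4 had 0 to 0.619 FPKM and Eno2 0.034 to 0.88.

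Neighbouring pathways were described by lists of their genes. In KO Ctrl against WT, where 2.65% of all genes were called, limma called 0 of 26 genes of pyruvate dehydrogenase and the TCA cycle, 0 of 7 of the pentose phosphate pathway, 0 of 17 of the HIF pathway, 0 of 4 of gluconeogenesis, 0 of 8 regulators of glucose use and 0 of 14 other hexose transporters and isozymes. In Wnt5a against WT and in KO Wnt5a against KO Ctrl limma called 0 genes of these 6 lists. In KO Wnt5a against WT, with 11.8% of all genes called, Pgd, a dehydrogenase of the pentose phosphate pathway, had 40.7, 41.2 and 41.2 FPKM in KO Wnt5a, against 58.7, 57.9 and 60.2 FPKM in WT (limma log2 fold change -0.51 with SE 0.09 and adjusted p = 0.00214), the single call among 7. The HIF pathway list had 1 lower, the prolyl hydroxylase gene Egln3 (log2 fold change -0.68, SE 0.15), and 3 higher of 17, with Egln1 (log2 fold change 0.69, SE 0.19) and Mxi1 (log2 fold change 0.46, SE 0.13) among them. Pdp1, the phosphatase that switches pyruvate dehydrogenase on, had 30.2, 19.5 and 21.1 FPKM in KO Wnt5a, against 13.7, 11.4 and 9.37 FPKM in WT (limma log2 fold change 0.97 with SE 0.20 and adjusted p = 0.00564), and Myc, a transcription factor with glycolytic targets, rose by 0.95 (SE 0.18).

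In the reserve comparisons most neighbouring lists had calls in both directions, while the calls of the HIF list were mostly lower. In KO Reserve against WT Reserve the share of the HIF list called was close to that of all genes. Of all genes 29.3% were called lower there and 12% higher, and the calls of other transporters and isozymes were mostly lower too. The shares by direction for the other comparisons are given above. In KO Reserve against WT Reserve, where 41.3% of all genes were called, the TCA list had 5 higher and 4 lower of 26, the pentose phosphate list 1 higher and 3 lower of 7, the HIF list 0 higher and 7 lower of 17, gluconeogenesis 0 higher and 1 lower of 4, regulators of glucose use 1 higher and 3 lower of 8, and other transporters and isozymes 1 higher and 7 lower of 14. The HIF targets Egln3 (log2 fold change -1.09, SE 0.15), Car9, a carbonic anhydrase gene (log2 fold change -1.25, SE 0.20), and Bnip3, a mitophagy gene (log2 fold change -1.07, SE 0.17), were lower in KO Reserve. Pgm1, a phosphoglucomutase gene of glycogen use, had 3.87, 2.85 and 3.41 FPKM in KO Reserve, against 16.2, 11.6 and 13.9 FPKM in WT Reserve (limma log2 fold change -1.76 with SE 0.13 and adjusted p = 6.98e-08). The groups did not overlap. In WT Reserve against WT, where 58.7% of all genes were called, the HIF list had 2 higher and 11 lower of 17, the TCA list 8 and 7 of 26, the pentose phosphate list 3 and 3 of 7, gluconeogenesis 2 and 1 of 4, regulators 2 and 3 of 8, and other transporters and isozymes 6 and 4 of 14. In KO Reserve against KO Ctrl, where 65.3% of all genes were called, the counts in the same order were 1 and 12, 7 and 9, 3 and 4, 2 and 1, 1 and 2, and 3 and 7. Pklr, the pyruvate kinase of liver and red cells, had 13.5, 9.67 and 9.90 FPKM in KO Reserve and 10.5, 6.06 and 17.3 FPKM in WT Reserve, against 0 to 0.017 in the other 12 libraries. The erythroid markers, given above, were also higher there, and their part was not tested.

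Among the neighbouring genes with the smallest p in WT Reserve against WT were Vhl, which marks HIF alpha subunits for destruction (log2 fold change -1.51, SE 0.14), Egln3 (log2 fold change -1.67, SE 0.15) and P4ha1, a collagen prolyl hydroxylase gene (log2 fold change -1.37, SE 0.14), all lower. Pgd (log2 fold change -1.20, SE 0.09) and Tkt, the transketolase gene (log2 fold change -1.25, SE 0.12), were lower. Pgls, the lactonase gene of the pentose phosphate pathway, was higher (log2 fold change 0.91, SE 0.11). Fbp1, a bisphosphatase gene of gluconeogenesis, had 10.1, 13.3 and 8.75 FPKM in WT Reserve, against 1.17, 0.601 and 0.676 FPKM in WT (limma log2 fold change 2.69 with SE 0.32 and adjusted p = 1.95e-06). In KO Reserve against KO Ctrl, the log2 value of Pgm1 fell by 3.23 (SE 0.13) and Tigar, whose product lowers fructose 2,6-bisphosphate, by 1.72 (SE 0.21). In KO Reserve against WT Reserve, Meis1, a homeobox gene of LT-HSC, fell by 1.92 (SE 0.11), and Stk11, the gene of the kinase LKB1, rose by 0.76 (SE 0.18).

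The libraries keep no strand, so reads of a gene and of a gene on the opposite strand cannot be told apart where they overlap. Hk1os overlaps Hk1 at 2.64 to 11.5 FPKM over the 18 libraries, Pitrm1 overlaps Pfkp at 24.2 to 39.98, Senp1 overlaps Pfkm at 8.60 to 24.6, Spsb2 overlaps Tpi1 at 3.61 to 18.3, Gm12868 overlaps Slc2a1 at 0 to 10.3, Yod1 overlaps Pfkfb2 at 3.33 to 6.73 and Iffo1 overlaps Gapdh at 1.71 to 5.63. Unc5a overlaps Hk3 at 0.025 to 4.05 FPKM, in the range of Hk3 itself, which had 0.146 to 6.34. The ranges of neighbour and gene also meet for Senp1 and Pfkm (9.34 to 20.3) and for Yod1 and Pfkfb2 (1.34 to 5.65). In the reserve libraries they meet for Gm12868 and Slc2a1 (0.519 to 5.65) and for Hk1os and Hk1 (9.46 to 21.8). Pitrm1 lies above Pfkp there (16.5 to 22.3). By the same measure of similarity as for Gapdh, similar genes held at most 0.584% of the summed FPKM of any other gene of the set and the genes like it, a share reached by Ldhb.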

How the data were processed

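RNA of sorted cells was amplified (SMARTer, ultra low input) and turned into Nextera libraries, per the labels' protocols, and such libraries keep no strand. TopHat2 2.0.10, Cufflinks, CASAVA 1.8.2 and the build mm10 were used, per the submitters' processing notes. The authors deposited 1 table of FPKM for 44349 Ensembl genes in 18 libraries; its header does not name the unit, which was taken from the values and the tools. Such values are not counts, so depth was only implied, from the steps of low values in 7045 genes with 1 transcript.

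All comparisons were fitted together with limma 3.58.1 in R 4.3.3 on log2(FPKM + 1), over the 14285 genes that reached 1 FPKM in 3 or more libraries, with trended and robust moderation and Benjamini-Hochberg adjustment. The method was tested on simulated data, with changes larger than any called in the set in KO Ctrl against WT. That test therefore does not cover changes of the size called there. Called members are named, and the 12 with the largest change get full statistics where more are called. The members and lists were chosen with earlier results of these data known. Gene symbols were in the table, and 43938 gene IDs matched GENCODE M21. Alternatives were a pseudocount of 0.1, scaling by median ratios, quantile normalization, testing without the filter, no trend or robust moderation, library weights, a replicate block, only the libraries of a comparison, each library left out and, chosen after seeing the data, the reserve libraries left out.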

Additional observations from a re-analysis of the deposited data

Results flagged for a closer look

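For 11 genes the difference between knockout and wild type was not the same in the reserve libraries as in the control libraries, by the interaction term of limma (KO Reserve minus WT Reserve, minus KO Ctrl minus WT, on the log2(FPKM + 1) scale). All 11 interactions were negative, where 30.9% of all genes had a called one and 22.9% a called negative one. The median interaction was -0.30 over the 30 genes and -0.22 over all genes. The term was -2.58 for Ldhb and -2.31 for Pdk2, -1.66 for Pkm, -1.5 for Slc2a1, -1.4 for Aldoc, -1.12 for Bpgm and -0.979 for Hif1a. It was -0.728 for Eno1, -0.48 for Pgam1, -0.46 for Pdk3 and -0.434 for Aldoa. Median-ratio scaling ended the calls of Pgam1, Aldoa, Pdk3 and Eno1, and quantile normalization those of Pgam1 and Pdk3. With median-ratio scaling the median interaction was -0.07 in the set and -0.002 over all genes. It called 7 genes of the set lower and 2 higher, where 29.3% of all genes were called. The Pdk3 call was lost in 11 of 20 alternatives, with values of -0.55 to -0.18: also without the filter, with only the libraries of the comparison, and without KO Reserve replicate 2 or 3, WT Reserve replicate 2, KO Ctrl replicate 2 or 3, or WT replicate 2 or 3. The reserve libraries also carry more granulocyte, erythroid and B cell transcripts than the control libraries, and fewer platelet transcripts. The part of these in the interaction was not tested.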

How the results depend on the processing

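The number of called genes in KO Ctrl against WT was 7. It was 4 with quantile normalization, 3 without the filter, 3 without trend and robust moderation, 13 with library weights and 13 without the reserve libraries, an alternative chosen after seeing the data. Of all genes 2.65% were called as reported, 10.4% with library weights and 5.38% without the reserve libraries. Wnt5a against WT had 12 called genes with library weights in place of 0 (10.8% of all genes in place of 0.049%), and KO Wnt5a against WT had 19 without the reserve libraries in place of 12 (17.6% of all genes in place of 11.8%). The cause was not tested. Leaving out 1 library gave 2 to 5 called genes in KO Ctrl against WT and 7 to 8 in KO Wnt5a against WT. It gave 17 to 20 in KO Reserve against WT Reserve, 24 to 26 in WT Reserve against WT, 23 to 25 in KO Reserve against KO Ctrl, 10 to 14 for the genotype by reserve interaction, and 0 in the others. Of 1443 alternative values for 97 called results of single genes, 117 lost the call, 69 of them by leaving out a library, and 0 changed sign.

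Libraries with the same replicate number did not deviate together (correlations of -0.0917 to 0.0789), so the numbers were not taken as pairs. With the replicate block 6 genes were called in KO Ctrl against WT, 10 in KO Wnt5a against WT, 19 in KO Reserve against WT Reserve, 24 in WT Reserve against WT, 24 in KO Reserve against KO Ctrl, 11 for the genotype by reserve interaction and 0 in the others.

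Each group has 3 libraries, which limits the precision of every value.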
